A study of Arabidopsis thaliana with 54 samples.

Results

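The comparison concerned roots of the Arabidopsis thaliana mutant spl7 after copper was withheld for 3 days. It set the 3 libraries from copper-free spl7 roots against the 3 libraries from control spl7 roots, 6 of the 54 libraries of the series, and took in all genes. The mutant is 1 insertion line, SALK_109908c, and it was compared across the series with the Col-0 ecotype. The copper-free roots had 25 µM Fe and no Cu for those 3 days, and the control roots had 25 µM Fe and 0.5 µM Cu. All 6 libraries came from plants that had first grown in 25 µM Fe with 2.5 µM Cu, a supply the study used to rescue the mutant. The Col-0 roots of the matching comparison had grown at 0.1 µM Cu before the same treatments, so a difference between the genotypes and a difference in earlier copper supply cannot be told apart. A further spl7 control, also kept at 25 µM Fe and 0.5 µM Cu, had grown at 0.1 µM Cu. Iron-free roots had no Fe and 0.5 µM Cu for the 3 days, and doubly deficient roots had neither metal. Before that these groups had 25 µM Fe, with 2.5 µM Cu for spl7 and 0.1 µM Cu for Col-0. The copper-free and control spl7 rosettes had the same earlier supply and treatments as the compared roots. Replicates are described as biological, but nothing says that they came from separate containers, so the p-values measure the spread between these samples.

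SPL7 is a transcription factor of the SBP family that directs the response of Arabidopsis to low copper. It binds promoters at motifs with the core letters GTAC and turns on genes of copper uptake, such as cupric reductases and COPT transporters. It also turns on FSD1, an iron superoxide dismutase, and microRNAs that lower the transcripts of copper proteins such as the copper/zinc superoxide dismutase CSD1 and laccases, which spares copper for plastocyanin and cytochrome c oxidase. Plants without SPL7 take up little copper and grow poorly when copper is low. The comparison therefore asks what the root transcriptome does on copper removal when that regulator is disrupted.

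The files gave 1 read count for each of 33610 gene identifiers. The copper-free libraries held 9811098, 12812473 and 13505186 counts, and the control libraries held 13558627, 12669240 and 13173728 counts. Levels are given as CPM, the counts of a gene scaled to a common library size (counts per 1e6). CPM does not correct for transcript length, so levels were compared between libraries and not between genes. In bulk roots, fewer cells of a type and less RNA per cell cannot be told apart. The summed level of 8 root marker genes was 1305, 1412 and 1325 CPM in copper-free roots, against 1227, 1366 and 1457 CPM in control roots, with a count for all 8 in every library. The summed level of 6 leaf marker genes was 32.9, 43.6 and 45.8 CPM in copper-free roots, against 19.1, 24.8 and 61.0 CPM in control roots. Copper-free replicate 2 lay apart from the other 5 libraries on the axis of largest variance, which carried 33.6% of it. The 2 groups did not overlap on this axis either. The copper-free libraries stood at -7.97, -37.05 and -7.30 and the control libraries at 25.01, 20.76 and 6.55. Among the other spl7 roots that share the fit, iron-free replicate 3 stood apart from its own group, with a chi-square per degree of freedom of 69.1 and 65.9 against replicates 1 and 2, beside 2.64 to 14.5 for all other pairs within a group.

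Copper removal moved few genes in spl7 roots. Of 20462 genes tested, 43 passed a Benjamini-Hochberg adjusted p of 0.05 in edgeR's quasi-likelihood test, which is 0.21%. Of these, 39 were higher in copper-free roots (0.191%) and 4 were lower (0.0195%). The rise was at least 2-fold for 17 genes, and no gene fell by that much. The median size of the change was 0.87 on the log2 scale over the called genes and 0.11 over all genes. At an unadjusted p of 0.05, 1740 genes passed (8.5%), of which 1065 were higher and 675 lower. The 3 libraries of each group did not overlap for any of the 43 called genes, and the same held for 3506 of all genes tested (17.1%), with the copper-free group higher in 8.6% and lower in 8.53%. The calls depended on the control libraries: without control replicate 1, or without control replicate 2, no gene was called, while 1260 and 1270 genes passed an unadjusted p of 0.05. Without copper-free replicate 2 there were 23 calls. With the iron-free spl7 group reduced to replicates 1 and 2 there were 355, and DESeq2's Wald test called 169 genes, the 43 among them.

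SPL7 itself had 24.5, 23.2 and 24.8 CPM in copper-free spl7 roots, against 28.9, 24.8 and 23 CPM in control spl7 roots. The groups overlapped, and the log2 difference of -0.08 ± 0.08 (SE) did not pass (adjusted p = 0.886). In Col-0 roots SPL7 averaged 61.8 ± 5.54 CPM without copper and 71.9 ± 5.42 CPM with copper (SD, n = 3 each). Reads were thus still counted on the gene in the mutant, and a count per gene does not show where along the gene they lie.

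None of the tested genes of a copper deficiency list passed the test in spl7 roots. The list held 12 genes, SPL7 itself among them, and 11 were tested. Of these, 4 had a log2 change above 0 and 6 below 0, and their median of -0.06 lay beside -0.0045 for all genes. No member passed at an unadjusted p of 0.05 either, and DESeq2's Wald test called none. Some of the 11 passed the filter on counts only through the other root libraries. With only the compared groups in the fit 7 passed it, 2 above 0 and 5 below 0, with a median of -0.09 and no call. The genes left out had too few reads in the compared libraries, so their lack of a call tells nothing. In Col-0 roots the same comparison called 15 genes (0.0733%), 10 of them higher (0.0489%), and 8 of those 10 were copper genes of the list. The test of the difference between the genotypes passed for 3 of the 11, CCH, ZIP2 and AT4G28790, under the earlier supply of 2.5 µM Cu for spl7 and 0.1 µM Cu for Col-0.

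CCH, a copper chaperone of the cytosol, had 88.9, 96 and 80.7 CPM in copper-free spl7 roots, against 70.8, 78.8 and 88.1 CPM in control spl7 roots. The groups overlapped, and the log2 change was 0.16 ± 0.12 (adjusted p = 0.807). In Col-0 roots CCH had 416, 568 and 463 CPM without copper, against 187, 184 and 175 CPM with copper. Every Col-0 library was above every spl7 library, and the change in spl7 differed from that in Col-0 by -1.25 ± 0.16 on the log2 scale (adjusted p = 0.00231).

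ZIP2, a metal transporter of the ZIP family, had 3.37, 3.08 and 3.54 CPM in copper-free spl7 roots, against 3.78, 5.21 and 4.76 CPM in control spl7 roots. The copper-free libraries were the lower ones, without passing the test (log2 -0.46 ± 0.32, adjusted p = 0.798). Its Col-0 libraries held 164, 147 and 184 CPM without copper, against 54.4, 64.7 and 42.4 CPM with copper. The difference between the 2 responses was -2.07 ± 0.38 (adjusted p = 0.0433). AT4G28790, annotated as a bHLH DNA-binding protein, behaved alike, with 1.33, 1.42 and 1.28 CPM in copper-free spl7 roots against 1.5, 1.79 and 1.74 CPM in control spl7 roots. It averaged 8.31 ± 1.49 CPM in copper-free Col-0 roots and 1.72 ± 0.47 CPM in control Col-0 roots, and the difference of the responses was -2.58 ± 0.38 (adjusted p = 0.00525).

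Several copper deficiency genes had almost no reads in the mutant. FSD1 had 0, 0 and 1 counts in copper-free spl7 roots, against 0, 2 and 4 counts in control spl7 roots, while it reached 294, 304 and 313 CPM in copper-free Col-0 roots, against 70.5, 73 and 69 CPM in control Col-0 roots. FRO5, a ferric and cupric reductase of the FRO family, had no count in any of the 6 spl7 libraries, and 3 counts, the limit that a count of 0 allows, amounted to 0.214 to 0.307 CPM there. FRO4, its neighbour and near copy with 92.6% identical coding sequence, had 3, 7 and 4 counts without copper, against 3, 4 and 0 counts with copper. The bHLH gene AT1G71200 had 1 count in copper-free roots and none in control roots. For these 4 genes a fall or a small difference was not detectable at this depth, and the fold changes of the fit were not interpreted.

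The copper transporters COPT1 and COPT2 of the plasma membrane, and YSL2, of a family that carries metals bound to nicotianamine, showed no call either. COPT2 had 3.99, 2.29 and 0.979 CPM in copper-free spl7 roots, against 0.499, 2.8 and 1.13 CPM in control spl7 roots, and averaged 62.5 ± 7.62 CPM in copper-free Col-0 roots. COPT1 had 3.17, 2.53 and 2.79 CPM without copper, against 3.42, 3.04 and 3.4 CPM with copper. YSL2 had 10.9, 10.3 and 11.4 CPM without copper, against 13.7, 8.09 and 12.2 CPM with copper. None of the 3 passed the test in spl7 roots, with adjusted p of 0.922, 0.857 and 0.979.

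**Figure D1:**
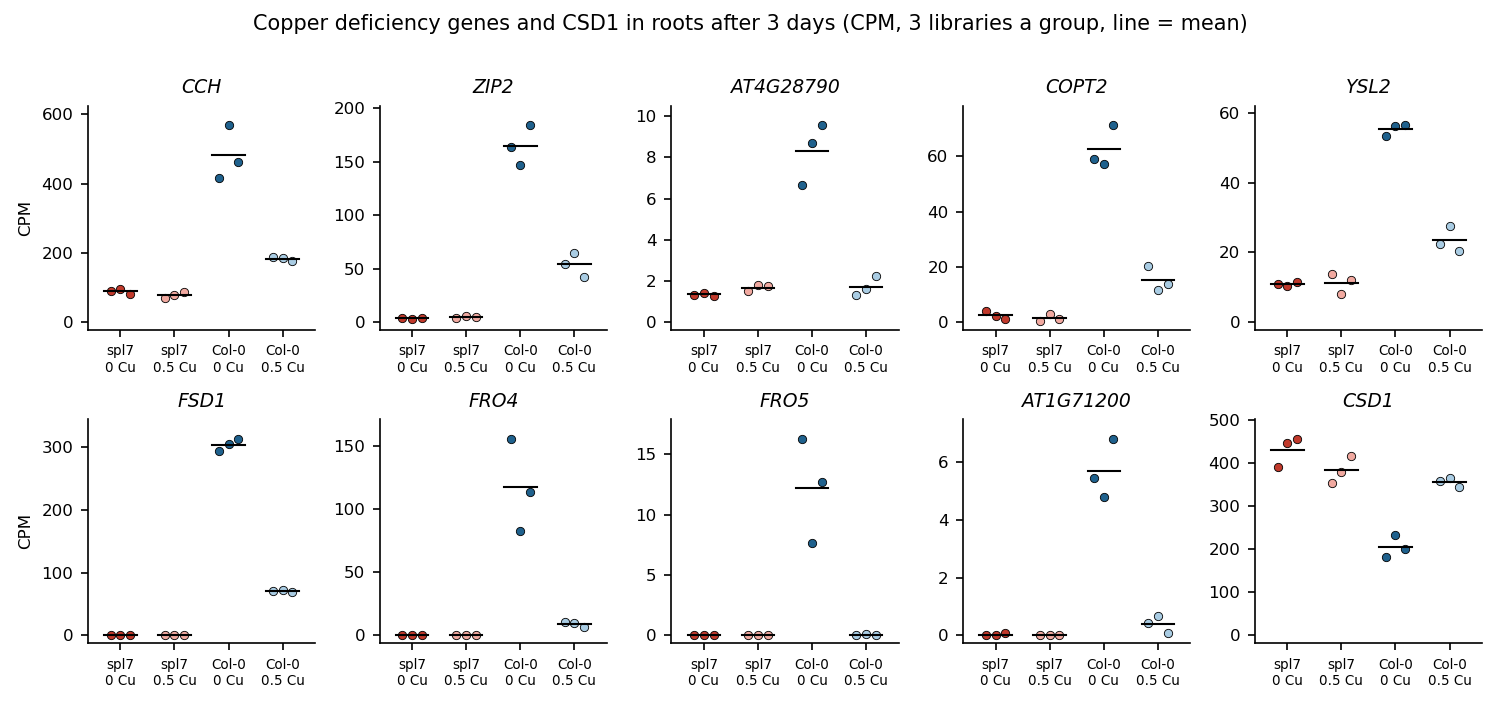
Levels in CPM (y axis, from 0, its own scale in each panel) of 9 copper deficiency genes and CSD1 in copper-free and control spl7 roots and in copper-free and control Col-0 roots (x axis, Cu in µM), with 1 point for each library and a line at the mean of 3. The spl7 libraries lie near the bottom of the panels of the 9 copper deficiency genes with and without copper, the copper-free Col-0 libraries are higher than the control Col-0 libraries there, and CSD1 is lower in copper-free Col-0 roots.

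The promoters of CCH, ZIP2 and FSD1 are shown because these genes rose in copper-free Col-0 roots and were not called in spl7 roots. Each runs from 250 bases before to 50 bases after the annotated start, 300 bases in all, read 5′ to 3′ on the gene's strand from the RefSeq reference of build TAIR10.1, with GTAC in capitals. They lie at chr3:20864678-20864977, chr5:23992859-23993158 and chr4:12886962-12887261, all on the minus strand. GTAC reads the same on both strands, and it occurs 4 times in CCH, 4 times in ZIP2 and 1 time in FSD1.
CCH: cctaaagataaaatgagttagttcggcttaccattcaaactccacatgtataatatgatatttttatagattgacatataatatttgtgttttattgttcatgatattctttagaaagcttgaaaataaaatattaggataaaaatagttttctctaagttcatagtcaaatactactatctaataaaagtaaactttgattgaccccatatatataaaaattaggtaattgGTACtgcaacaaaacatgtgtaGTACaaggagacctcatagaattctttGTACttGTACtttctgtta
ZIP2: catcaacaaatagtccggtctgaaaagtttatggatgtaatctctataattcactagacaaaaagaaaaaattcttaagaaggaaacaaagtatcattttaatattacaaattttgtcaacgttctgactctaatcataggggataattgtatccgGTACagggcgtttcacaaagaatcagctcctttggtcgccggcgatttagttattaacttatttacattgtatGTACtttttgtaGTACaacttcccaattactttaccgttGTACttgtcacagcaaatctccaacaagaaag
FSD1: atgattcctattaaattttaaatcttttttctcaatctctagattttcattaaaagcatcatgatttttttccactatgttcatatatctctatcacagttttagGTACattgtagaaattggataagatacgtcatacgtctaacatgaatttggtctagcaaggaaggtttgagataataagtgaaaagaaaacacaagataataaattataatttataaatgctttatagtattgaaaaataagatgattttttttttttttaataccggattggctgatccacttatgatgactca
Of the 12 genes of the copper deficiency list, 5 held GTAC in this window (41.7%), beside 39.2% of the 19908 tested genes with a promoter in the reference. SPL7 itself is among the 12 and held none. A match of these letters is a description and not a binding site, and FRO4 and FRO5 held none in this window.

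The microRNA arm of the response could hardly be read from these libraries. The precursor loci of miR397, miR398, miR408 and miR857 had no count in any of the 15 spl7 root libraries. MIR397a, MIR397b and MIR398b had none in the copper-free and control Col-0 roots either. MIR398a, MIR408 and MIR857 had none in control Col-0 roots and at most 3 counts in a copper-free Col-0 library. The library method counts mostly messenger RNA, and in Col-0 the best covered of the 7 loci, MIR398c, had 14, 2 and 3 counts without copper, against 7, 7 and 6 counts with copper. Its absence from spl7 is therefore read from few counts.

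Transcripts that these microRNAs target showed no call in spl7 in the main fit. Of 13 copper proteins of this kind, none passed the test and 1 passed an unadjusted p of 0.05 in each direction. DESeq2's Wald test called none, and the median log2 change was 0.09. With the iron-free spl7 group reduced to replicates 1 and 2, edgeR called 1 of the 13 higher. CSD1 had 390, 447 and 456 CPM in copper-free spl7 roots, against 353, 380 and 417 CPM in control spl7 roots (log2 0.17 ± 0.12, adjusted p = 0.805). In Col-0 roots CSD1 fell to 204 ± 25.6 CPM without copper, against 355 ± 10.6 CPM with copper (adjusted p = 0.00295). The responses differed by 0.97 ± 0.17 (adjusted p = 0.0417). CCS, the chaperone that loads these dismutases with copper, averaged 121 ± 3.76 CPM in copper-free spl7 roots and 121 ± 4.43 CPM in control spl7 roots.

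The members of that group that passed an unadjusted p of 0.05 were a blue copper protein and a laccase. UCC2, an uclacyanin, had 1480, 1500 and 1580 CPM in copper-free roots, against 1040, 980 and 1180 CPM in control roots. All copper-free libraries were higher, but the log2 change of 0.51 ± 0.18 did not pass (adjusted p = 0.317). LAC2 had 91.4, 50.8 and 81.8 CPM in copper-free roots, against 98.7, 103 and 126 CPM in control roots, with every copper-free library lower (adjusted p = 0.354). Among 14 tested genes for copper chaperones, pumps and plastocyanins none passed the test or an unadjusted p of 0.05, nor DESeq2's Wald test, and the median was 0.02. HMA5, a root copper pump, had 78.3, 74 and 77.7 CPM without copper, against 61.2, 65.2 and 75.5 CPM with copper. Of 4 tested metallothioneins, none passed either test or an unadjusted p of 0.05.

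The genes that did rise in copper-free spl7 roots were mostly of other kinds. They were grouped by annotation after their values had been seen, so the grouping supports nothing by itself. The family medians and counts given below include the called members that chose each family. The first group makes tryptophan, the precursor of auxin and of indole defence compounds. ASA1 and ASB1 encode the subunits of anthranilate synthase, the enzyme that commits chorismate to tryptophan. ASA1 had 162, 119 and 162 CPM in copper-free roots, against 87.6, 82.6 and 105 CPM in control roots, a 1.61-fold rise (log2 0.69 ± 0.14, adjusted p = 0.0297). ASB1 had 18.4, 17.6 and 15.9 CPM in copper-free roots, against 11.2, 10.8 and 11.6 CPM in control roots (1.54-fold, adjusted p = 0.0104). TSB1, a subunit of tryptophan synthase, had 273, 257 and 274 CPM in copper-free roots, against 199, 198 and 198 CPM in control roots (1.35-fold, adjusted p = 0.0173). In all 3 genes every copper-free library was above every control library, and in ASA1 the copper-free libraries also differed widely among themselves.

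The other enzymes of that pathway did not pass. Of 12 annotated to tryptophan synthesis, 3 were called, 9 had a log2 change above 0, the called ones included, and the median was 0.22. The 9 that were not called ran between -0.09 for PAI1 and 0.52 for TSA1, on both sides of 0. TSA1, the partner subunit of TSB1, changed by 0.52 ± 0.14 on the log2 scale (adjusted p = 0.126). TRP1 changed by 0.37 ± 0.17 (adjusted p = 0.518). The paralogs ASA2 and TSB2 were at -0.06 and 0.05. The median of these 12 enzymes in Col-0 roots was 0.23.

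The second group modifies indole glucosinolates, sulfur compounds that crucifers use against insects and microbes. IGMT2 and IGMT4 are O-methyltransferases of that pathway. IGMT2 had 31.5, 32 and 20.4 CPM in copper-free roots, against 9.7, 6.3 and 15.6 CPM in control roots (2.65-fold, adjusted p = 0.0247). IGMT4 had 41.9, 42.6 and 32.8 CPM in copper-free roots, against 15.4, 8.41 and 24 CPM in control roots (2.45-fold, adjusted p = 0.0466). The lowest copper-free library was close to the highest control library in both. They lie 1991 bases apart on chromosome 1 and share 92.5% of their coding sequence, so reads may be split between them and the values are not independent.

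Genes of the same chemistry stood next to these without passing. In a list of 10 genes for tryptophan-derived defence compounds none was called, 4 passed an unadjusted p of 0.05, and the median log2 change was 0.64. DESeq2's Wald test called 2 of them, edgeR called 4 with the iron-free spl7 group reduced to replicates 1 and 2, 2 without control replicate 3 and 1 with no filter on low counts. MYB51, a transcription factor that activates indole glucosinolate genes, had 69.9, 43.2 and 46.4 CPM in copper-free roots, against 26.4, 17.4 and 36 CPM in control roots (adjusted p = 0.0584). CYP81F2, a cytochrome P450 that hydroxylates indole glucosinolates, had 39.9, 23 and 22 CPM in copper-free roots, against 11.3, 4.59 and 18.3 CPM in control roots (adjusted p = 0.0787). Both lay just outside the threshold, with groups that did not overlap. CYP71A12, of camalexin-type indole synthesis, had 19.1, 22.4 and 23 CPM without copper, against 6.06, 3.74 and 11.9 CPM with copper (adjusted p = 0.388). PEN3, an exporter of indole compounds, had 1630, 1510 and 1440 CPM without copper, against 956, 1120 and 1250 CPM with copper (adjusted p = 0.26).

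The third group conjugates or exports foreign and toxic compounds. GSTF2, a glutathione transferase, had 1260, 1090 and 1620 CPM in copper-free roots, against 795, 563 and 924 CPM in control roots (1.74-fold, adjusted p = 0.0292). GSTF3 had 88, 76.4 and 129 CPM in copper-free roots, against 54.3, 37.7 and 65.4 CPM in control roots (1.87-fold, adjusted p = 0.0292). These 2 genes share 94.5% of their coding sequence, and their libraries followed one order, so GSTF3 may hold reads of GSTF2. DTX1, an efflux carrier of the MATE family, was scarcely expressed, with 3.68, 2.13 and 1.96 CPM in copper-free roots, against 0.428, 1.01 and 0.831 CPM in control roots (3.36-fold, adjusted p = 0.0292). Over 39 annotated glutathione S-transferases, 24 had a change above 0 and the median was 0.20.

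Secreted oxidases and peroxidases formed the fourth group. AT4G20830, a FAD-binding protein of the berberine bridge enzyme family, had 233, 281 and 229 CPM in copper-free roots, against 120, 110 and 148 CPM in control roots (1.96-fold, adjusted p = 0.00668). AT1G30730 of the same family had 115, 185 and 130 CPM in copper-free roots, against 69, 73 and 94.9 CPM in control roots (1.82-fold, adjusted p = 0.0297). The family's median over 18 tested members was 0.45 in spl7 roots and -0.15 in Col-0 roots, and 14 of the 18 were above 0 in spl7. The called genes are among the 18, so the spl7 values are not independent of the choice of the family.

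The class III peroxidases use hydrogen peroxide in the cell wall. AT1G49570 had 333, 408 and 458 CPM in copper-free roots, against 172, 139 and 195 CPM in control roots (2.37-fold, adjusted p = 0.0297). AT5G19890 had 735, 754 and 787 CPM in copper-free roots, against 471, 473 and 563 CPM in control roots (1.51-fold, adjusted p = 0.0173). PER4 had 7.57, 11 and 5.2 CPM in copper-free roots, against 3.07, 2.33 and 4.23 CPM in control roots (2.46-fold, adjusted p = 0.038). In each gene all copper-free libraries were above all control libraries. Over 55 tested members of the family, 40 were above 0, in 17 the copper-free libraries were all higher than the control libraries (8.6% of all tested genes were), and the median was 0.18.

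Hydrolases and lectins that act on sugar chains formed the fifth group. AT4G01700, a chitinase, had 89.2, 83.9 and 92 CPM in copper-free roots, against 66.6, 60.3 and 65.7 CPM in control roots (1.38-fold, adjusted p = 0.0173). Of all called genes it had the Col-0 change nearest to a call, 0.39 ± 0.08 with an adjusted p of 0.0669. AT4G19750 and AT4G19760, neighbouring hydrolases with a chitinase insertion domain, rose 2.57-fold and 2.38-fold. AT4G19750 had 331, 258 and 469 CPM in copper-free roots, against 111, 114 and 186 CPM in control roots (adjusted p = 0.038). The pair lies 3254 bases apart with 91.9% identical coding sequence, so it may share reads. Over 21 chitinase-type genes the median was 0.32, and 16 were above 0.

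AT1G78830 and AT1G78850 encode mannose-binding lectin-like proteins. AT1G78830 had 103, 99.8 and 99.6 CPM in copper-free roots, against 47.4, 53.2 and 65.2 CPM in control roots (1.83-fold, adjusted p = 0.00893). In Col-0 roots it averaged 63.3 ± 1.75 CPM without copper and 87.5 ± 12.3 CPM with copper, and the responses differed by 1.34 ± 0.19 (adjusted p = 0.0035). AT1G78850 had 582, 687 and 558 CPM in copper-free spl7 roots, against 366, 382 and 443 CPM in control spl7 roots (1.53-fold, adjusted p = 0.0443). Their coding sequences were 60.5% identical, much less than those of the pairs named before.

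Signalling and membrane genes formed the sixth group. TCH3, a calmodulin-like calcium-binding protein named for its rise after touch, had 234, 209 and 200 CPM in copper-free roots, against 85.7, 57.9 and 118 CPM in control roots (2.46-fold, adjusted p = 0.0173). All 3 copper-free libraries were well above the controls. Col-0 roots had 134, 125 and 133 CPM without copper, against 147, 241 and 143 CPM with copper, and the responses differed by 1.73 ± 0.31 (adjusted p = 0.0417). CRK40, a cysteine-rich receptor-like kinase, had 10.6, 8.85 and 6.18 CPM in copper-free roots, against 3.14, 2.88 and 4.68 CPM in control roots (2.38-fold, adjusted p = 0.019). FLOT1, a flotillin of membrane microdomains, had 69.4, 70.7 and 59.7 CPM in copper-free roots, against 34.1, 28.6 and 46.7 CPM in control roots (1.83-fold, adjusted p = 0.0223). XBAT34 rose 2.08-fold (adjusted p = 0.0241).

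The remaining risen genes were spread over metabolism, transport and the wall. AT5G42830, an acyltransferase of the HXXXD type, had 68.5, 65.2 and 60.7 CPM in copper-free roots, against 39, 34.9 and 43.4 CPM in control roots, and shared with AT4G20830 the smallest adjusted p, 0.00668. FDH, the mitochondrial formate dehydrogenase, had 49.6, 41.9 and 52.5 CPM in copper-free roots, against 24.2, 25.1 and 28.8 CPM in control roots (1.84-fold, adjusted p = 0.024). AT1G14040, of the EXS family of membrane proteins, had 140, 93.5 and 98.8 CPM in copper-free roots, against 58.3, 54.6 and 74 CPM in control roots (1.77-fold, adjusted p = 0.0116). In each of these genes the copper-free libraries lay clear of the controls. The methyltransferase-like genes AT1G15125 and AT2G41380 rose 3.03-fold and 2.1-fold. AT1G15125 had 10.6, 10.7 and 22.1 CPM in copper-free roots, against 5.06, 4.12 and 5.21 CPM in control roots.

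AT1G13480 and AT1G13490, neighbours with a domain of unknown function (DUF1262), rose 1.64-fold and 3.58-fold. AT1G13490 had only 1.43, 1.42 and 0.753 CPM in copper-free roots, against 0.214, 0.311 and 0.453 CPM in control roots. The 9 tested genes with this domain, a family picked after its called members were seen, had a median of 0.34, with 8 above 0. In 6 of them the copper-free libraries lay above all control libraries, beside 8.6% of all genes. AT2G18690, an uncharacterized protein, had 160, 196 and 131 CPM in copper-free roots, against 69.9, 66.5 and 98 CPM in control roots (2.08-fold, adjusted p = 0.0173). The other 8 risen genes were ABCI19, AT2G39400, AT2G44370, AT3G60420, AT4G39230, AT5G28050, AT5G54710 and PGSIP7. They rose between 1.34-fold for AT5G28050, a deaminase-family protein, and 3.42-fold for AT3G60420, of the phosphoglycerate mutase family. AT2G39400, an alpha/beta-hydrolase, had 14.9, 15.4 and 14.9 CPM in copper-free roots, against 7.7, 6.69 and 5.14 CPM in control roots (2.31-fold, adjusted p = 0.0128). ABCI19, of the ABC ATPases, had 10.8, 10.9 and 11.1 CPM in copper-free roots, against 7.98, 7.78 and 5.74 CPM in control roots (1.52-fold, adjusted p = 0.0381).

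PRP1, a proline-rich protein of root hair walls, had the highest estimate and the widest spread. It had 3.07, 10.9 and 4.14 CPM in copper-free roots, against 0.713, 0.623 and 0.604 CPM in control roots (9.33-fold, log2 3.22 ± 0.67, adjusted p = 0.0391). The copper-free libraries differed more than 3-fold among themselves. The spl7 control grown at 0.1 µM Cu averaged 54.8 ± 2.19 CPM, so the copper-free value lay between the 2 controls. Of 11 tested root hair and proline-rich genes, PRP1 was the only one called, 9 were above 0 and the median was 0.27. RSL4, a regulator of root hair growth, had 2.76, 3.55 and 3.24 CPM without copper, against 1.5, 2.02 and 1.96 CPM with copper (adjusted p = 0.435).

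The 4 genes that fell did so by less than 2-fold. OFP1, an ovate family transcriptional repressor, had 4.29, 3.95 and 4.29 CPM in copper-free roots, against 7.77, 7.47 and 7.33 CPM in control roots (log2 -0.85 ± 0.15, adjusted p = 0.0173). In Col-0 roots it averaged 6.88 ± 0.76 CPM without copper and 4.79 ± 0.82 CPM with copper, and the responses differed by -1.36 ± 0.21 (adjusted p = 0.00805). AT1G14630, annotated as XRI1-like, had 5.01, 5.45 and 5.42 CPM in copper-free roots, against 9.05, 10.3 and 9.21 CPM in control roots. AT4G02850, of the PhzC/PhzF family, had 10.1, 16 and 11.1 CPM in copper-free roots, against 17.9, 21 and 22.4 CPM in control roots. BAT1, an acyltransferase that lowers active brassinosteroids, had 107, 80.5 and 100 CPM in copper-free roots, against 142, 124 and 137 CPM in control roots (adjusted p = 0.038). All 8 genes of the brassinosteroid metabolism list were below 0, with a median of -0.07 and BAT1 as the only call.

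**Figure D2:**
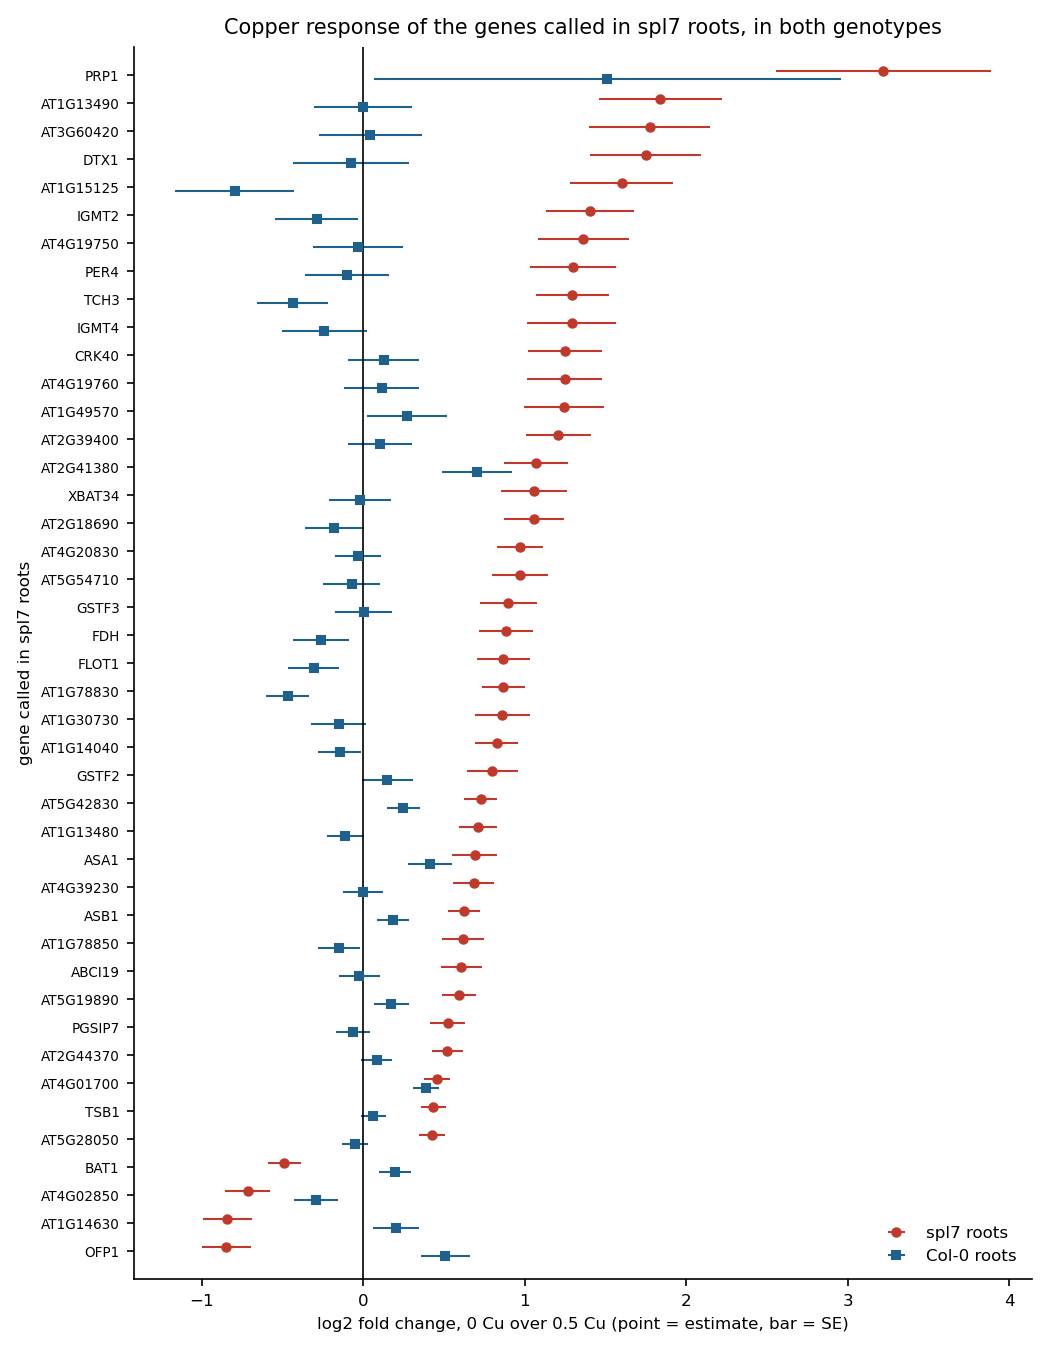
Log2 fold change of copper-free over control roots (x axis; points with bars of 1 SE) for the 43 genes called in spl7 roots (y axis), in spl7 roots (circles) and in Col-0 roots (squares). The spl7 estimates run from -0.85 for OFP1 to 3.22 for PRP1 and are the values that chose the genes, while the Col-0 estimates lie on both sides of 0.

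The promoters of FLOT1 and ASB1 show the letters searched in the risen genes. FLOT1 (chr5:8749430-8749729, plus strand) is given with GTAC in capitals, 3 times. ASB1 (chr1:8839560-8839859, minus strand) is given with TTGAC, the core letters bound by WRKY factors, and its reverse complement GTCAA in capitals, 4 times in all. Window, source and build are those of the promoters above.
FLOT1: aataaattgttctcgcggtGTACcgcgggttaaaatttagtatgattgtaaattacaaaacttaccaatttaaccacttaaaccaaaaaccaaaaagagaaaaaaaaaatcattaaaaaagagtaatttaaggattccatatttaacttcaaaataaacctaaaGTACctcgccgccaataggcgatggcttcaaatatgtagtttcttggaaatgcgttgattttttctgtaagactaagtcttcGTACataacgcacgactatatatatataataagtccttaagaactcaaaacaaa
ASB1: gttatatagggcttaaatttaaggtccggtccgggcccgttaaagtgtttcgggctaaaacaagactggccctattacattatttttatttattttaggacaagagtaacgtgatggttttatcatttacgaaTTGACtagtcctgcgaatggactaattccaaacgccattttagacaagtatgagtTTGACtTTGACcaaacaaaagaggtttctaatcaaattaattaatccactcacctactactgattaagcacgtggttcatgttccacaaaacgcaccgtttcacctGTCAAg
Of the 39 risen genes, 12 held GTAC (30.8%), beside 39.2% of tested genes. TTGAC on either strand stood in 22 of the 39 (56.4%), beside 51.5% of tested genes. The shares of the risen genes lay near those of all tested genes for both motifs.

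By edgeR's test, no risen gene was called higher in Col-0 roots, in iron-free spl7 roots or in spl7 rosettes when copper was removed. Over all tested genes the shares called higher there were 0.0489%, 5.19% and 0.699%, so a count of 0 among so few genes tells little. In Col-0 roots, which share no library with this comparison, 0 of the 39 risen genes were called, beside 0.0733% of all genes. At an unadjusted p of 0.05, 4 passed as higher and 2 as lower, beside 1563 and 1699 of 20462 genes tested. Of the 39 risen genes, 17 were above 0, and the median was -0.03. DESeq2's Wald test called 1 of them higher and 1 lower there. At the level of the pair of responses, 9 genes differed between spl7 and Col-0 roots (0.044%), among them the risen AT1G78830 and TCH3 and the fallen OFP1. DESeq2's Wald test of that difference called 128 genes, 20 of the 39 risen genes among them, all higher in spl7, and in edgeR 35 of the 39 passed an unadjusted p of 0.05. The difference uses the same spl7 libraries that chose these genes, so neither the sign nor these counts are independent of the choice. When copper was removed from spl7 roots that also lacked iron, 2844 genes were called (13.9%), 1061 of them higher (5.19%) and 1783 lower (8.71%). That count rested on the iron-free libraries: it was 9088 without the iron-free replicate 3 that stood apart, 353 without iron-free replicate 1, and 0 with only the compared groups in the fit. In that comparison with all libraries, 0 of the 39 risen genes were called higher (1 passed an unadjusted p of 0.05) and 9 lower, by edgeR and by DESeq2's Wald test alike in number, 33 had estimates below 0, and the median was -0.25. In spl7 rosettes 225 genes were called (1.12%), of which 140 were higher (0.699%) and 85 lower (0.425%). Of the 39 risen genes 28 were tested there, 0 were called higher by either tool or at an unadjusted p of 0.05, 1 was called lower by edgeR, and the median was -0.05.

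The called genes were chosen by the difference between the copper-free and control levels, so extreme ranks of those means follow in part from the choice. The ranks were not counted over all tested genes and are given as a description. In 17 of the 39 risen genes the control spl7 roots had the lowest mean of all 9 root groups of the series, and in 26 the copper-free spl7 roots had the highest. The copper-free mean was above that of the spl7 control grown at 0.1 µM Cu in 35 of the 39, with a median ratio of 1.51, beside a median ratio of 1.87 to the control that the calls used. For the 4 fallen genes the copper-free mean was the lowest of all 9 groups. PER4 shows a gene for which the second control was higher: it averaged 7.91 ± 2.91 CPM in copper-free roots, against 3.21 ± 0.96 CPM in control roots and 11.5 ± 1.14 CPM in the control grown at 0.1 µM Cu (SD, n = 3 each). AT1G15125 shows the reverse, with 14.5 ± 6.62 CPM in copper-free roots, against 4.8 ± 0.59 CPM in control roots and 1.52 ± 0.15 CPM in that second control.

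**Figure D3:**
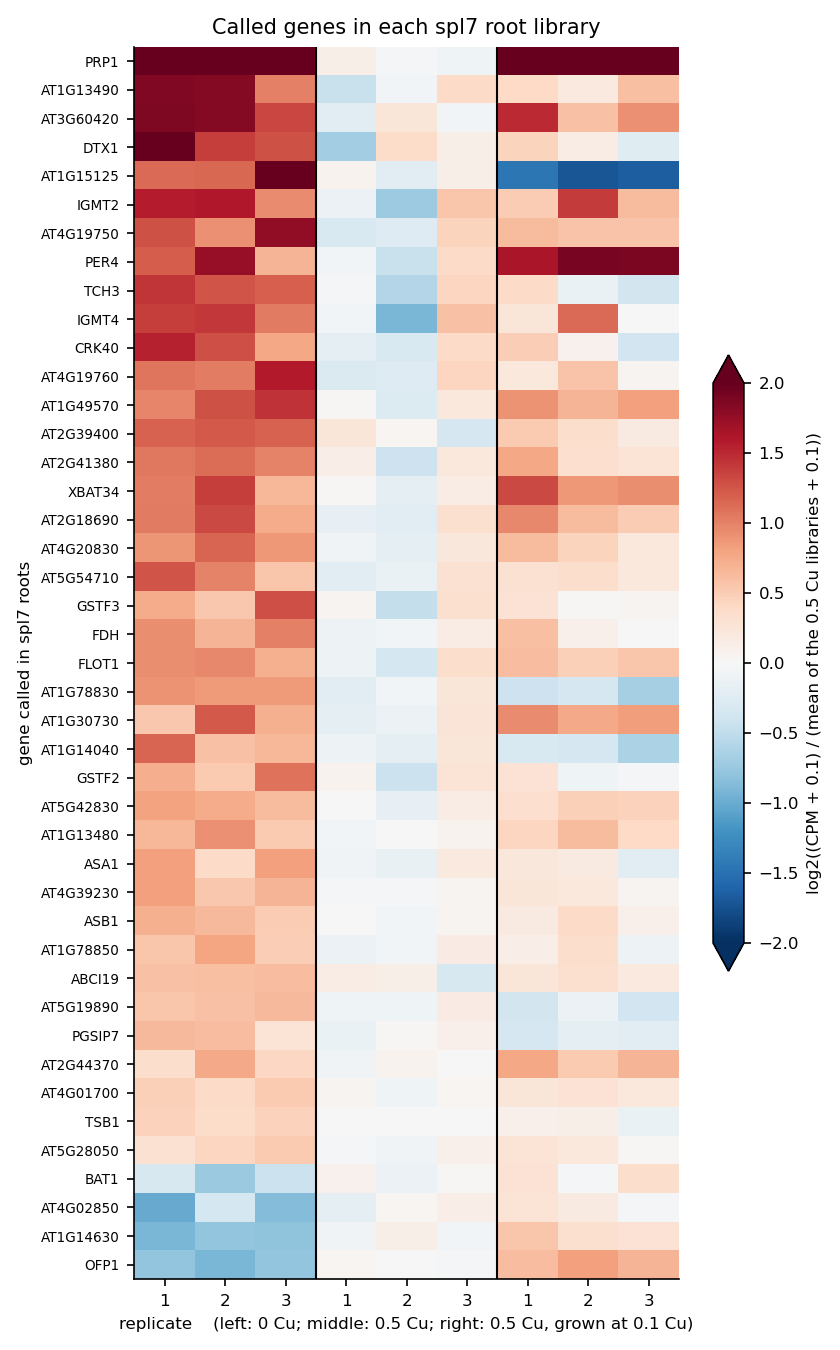
Log2 ratio of each library's level to the mean of the control libraries, with 0.1 CPM added to both (colour), for the 43 called genes (rows) in the 3 copper-free, 3 control and 3 further control libraries of spl7 roots (columns, left to right). The left block is red for the 39 risen genes and blue for the 4 fallen genes, and the right block, grown at 0.1 µM Cu, is deepest in red for PRP1 and PER4 and in blue for AT1G15125.

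Salicylate and ethylene lists had most members above 0 and no call. Over all tested genes 8.5% passed an unadjusted p of 0.05, the share to set beside the counts of this and the following lists. Of 17 tested genes for salicylate and pipecolate defence none was called, 9 passed an unadjusted p of 0.05, 16 were above 0, and the median was 0.27. CBP60G, an activator of salicylate synthesis, had 65.4, 64.4 and 45.3 CPM in copper-free roots, against 35.5, 31.6 and 31.7 CPM in control roots (log2 0.82 ± 0.19, adjusted p = 0.069). SARD1 had 34.6, 35.3 and 25.8 CPM without copper, against 21.2, 19.9 and 24.9 CPM with copper (adjusted p = 0.249). WRKY70, a transcription factor downstream of salicylate, had 55.3, 36.3 and 46.9 CPM without copper, against 29, 20.3 and 34.4 CPM with copper (adjusted p = 0.268). The groups did not overlap in these 3 genes, and DESeq2's Wald test called 1 member of the list. In Col-0 roots the median of the list was 0.30, with 13 of 17 above 0 and no call. There 6 passed an unadjusted p of 0.05 as higher, beside 15.9% of all genes in either direction.

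Of 16 tested ethylene genes, none was called, 7 passed an unadjusted p of 0.05, 15 were above 0, and the median was 0.43, while DESeq2's Wald test called 1. ERS1, an ethylene receptor whose transcript rises with the hormone, had 226, 215 and 231 CPM in copper-free roots, against 152, 153 and 179 CPM in control roots (adjusted p = 0.137). ERF1, an ethylene response factor, had 10.8, 5.61 and 10 CPM in copper-free roots, against 3.92, 2.02 and 4.15 CPM in control roots (adjusted p = 0.177). RAN1, the pump that delivers copper to ethylene receptors, had 513, 470 and 493 CPM in copper-free roots, against 489, 506 and 534 CPM in control roots. Its groups overlapped and the log2 difference was -0.05 ± 0.13.

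Of 15 tested oxidative stress genes none was called, 5 passed an unadjusted p of 0.05 and the median was 0.28, and DESeq2's Wald test called 1. GSTF6, a glutathione transferase, had 125, 149 and 154 CPM in copper-free roots, against 64.3, 29.3 and 101 CPM in control roots (adjusted p = 0.0928). Of 15 rapid touch and wound genes TCH3 was the only one called, 5 passed an unadjusted p of 0.05, all higher, and the median was 0.38. DESeq2's Wald test called 2 of them. WRKY6 had 67.7, 76.1 and 59.9 CPM in copper-free roots, against 43.6, 44 and 48.3 CPM in control roots (adjusted p = 0.0845). Jasmonate genes had a median of 0.10 over 18 tested, with none called by either test and 1 that passed an unadjusted p of 0.05. The 8 xylem secondary wall genes were all below 0, with a median of -0.24, no call by either test and 4 that passed an unadjusted p of 0.05. IRX9, a glycosyltransferase of xylan synthesis, had 17.4, 18.1 and 20.7 CPM in copper-free roots, against 21.7, 21.2 and 31.6 CPM in control roots (adjusted p = 0.318). In Col-0 roots the medians were -0.275 for the xylem list and 0.30 for the jasmonate list. They were 0.03 for ethylene, -0.01 for oxidative stress and 0.004 for touch and wound genes. The counts of calls in spl7 roots depended on the shared fit. With the iron-free spl7 group reduced to replicates 1 and 2, the ethylene list and the list of tryptophan-derived defence compounds had 4 called members each, the oxidative stress, touch and wound, and low oxygen lists 2 each, and the salicylate list 1.

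**Figure D4:**
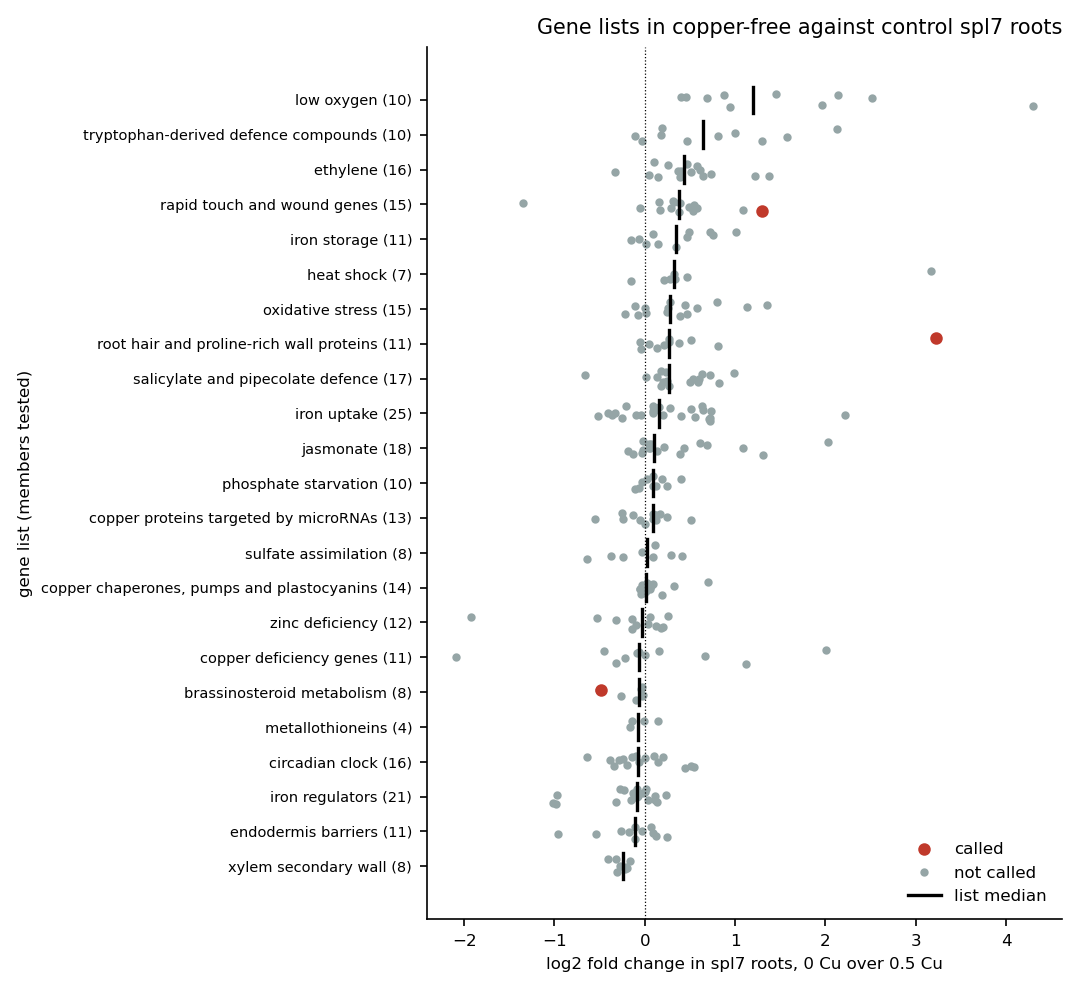
Log2 fold change of copper-free over control spl7 roots (x axis) for each tested member of the gene lists (y axis, number tested in brackets), with called genes in red, the others in grey and a bar at the list median. The medians run from -0.24 for xylem secondary wall to 1.20 for low oxygen, and TCH3, PRP1 and BAT1 are the called members.

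Several iron genes varied widely within the groups. Of 25 tested iron uptake genes none was called, 2 passed an unadjusted p of 0.05, DESeq2's Wald test called none, and the median was 0.16. IRT1, the main iron transporter of the root surface, had 218, 311 and 51.1 CPM in copper-free roots, against 26.7, 271 and 56.3 CPM in control roots. FRO2, the ferric reductase that feeds it, had 205, 253 and 43.5 CPM in copper-free roots, against 22.3, 239 and 43.9 CPM in control roots. In both groups replicate 2 was the highest, and the groups overlapped (adjusted p = 0.949 and 0.947). CYP82C4, of coumarin synthesis for iron mobilisation, had 29.1, 69.5 and 2.03 CPM without copper, against 0.57, 61.9 and 2.79 CPM with copper. BHLH100, an iron deficiency transcription factor, had 1.02, 4.66 and 0.0753 CPM without copper, against 0, 6.3 and 0.0755 CPM with copper.

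The iron storage protein FER1 ran the other way, with 181, 75.3 and 210 CPM in copper-free roots, against 172, 60.6 and 188 CPM in control roots. Replicate 2 was the lowest in both groups. Of 11 tested iron storage genes and 21 iron regulators none was called by either test, 2 storage genes passed an unadjusted p of 0.05 as higher and 2 regulators as lower, and the medians were 0.35 and -0.09. FRU, the regulator that turns on IRT1 and FRO2, had 127, 111 and 98.7 CPM in copper-free roots, against 102, 143 and 131 CPM in control roots. NAS2, a nicotianamine synthase, had the highest estimate among the uptake genes from 1 library, with 141, 20.9 and 17.9 CPM in copper-free roots, against 11, 8.87 and 18.4 CPM in control roots (adjusted p = 0.426). Of 12 tested zinc deficiency genes none was called by either test, 2 passed an unadjusted p of 0.05 as lower, and the median was -0.03.

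Low-oxygen genes had the highest list median, and 1 library carried it. ADH1, the alcohol dehydrogenase of fermentation, had 17.1, 801 and 33.9 CPM in copper-free roots, against 14.3, 18.9 and 10.1 CPM in control roots (adjusted p = 0.119). HB1, a hemoglobin that rises without oxygen, had 41.3, 256 and 47.3 CPM in copper-free roots, against 26.9, 32.7 and 28.9 CPM in control roots. SUS4, a sucrose synthase, had 19.8, 234 and 23.4 CPM in copper-free roots, against 20.7, 26.8 and 15.9 CPM in control roots. Copper-free replicate 2 was far above all other libraries in the 3 genes, and it is the library that lay apart on the axis of largest variance. The list median was 1.20 with that library and 0.26 without it, and no member was called by edgeR in either case, although 6 passed an unadjusted p of 0.05 with it and DESeq2's Wald test called 1. HSP17.6II, a small heat shock protein, also peaked there, with 0.409, 4.11 and 0.301 CPM in copper-free roots, against 0.143, 0.233 and 0.151 CPM in control roots. The part of this library's state in the calls was not tested, and 18 of the 43 called genes were called without it.

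**Figure D5:**
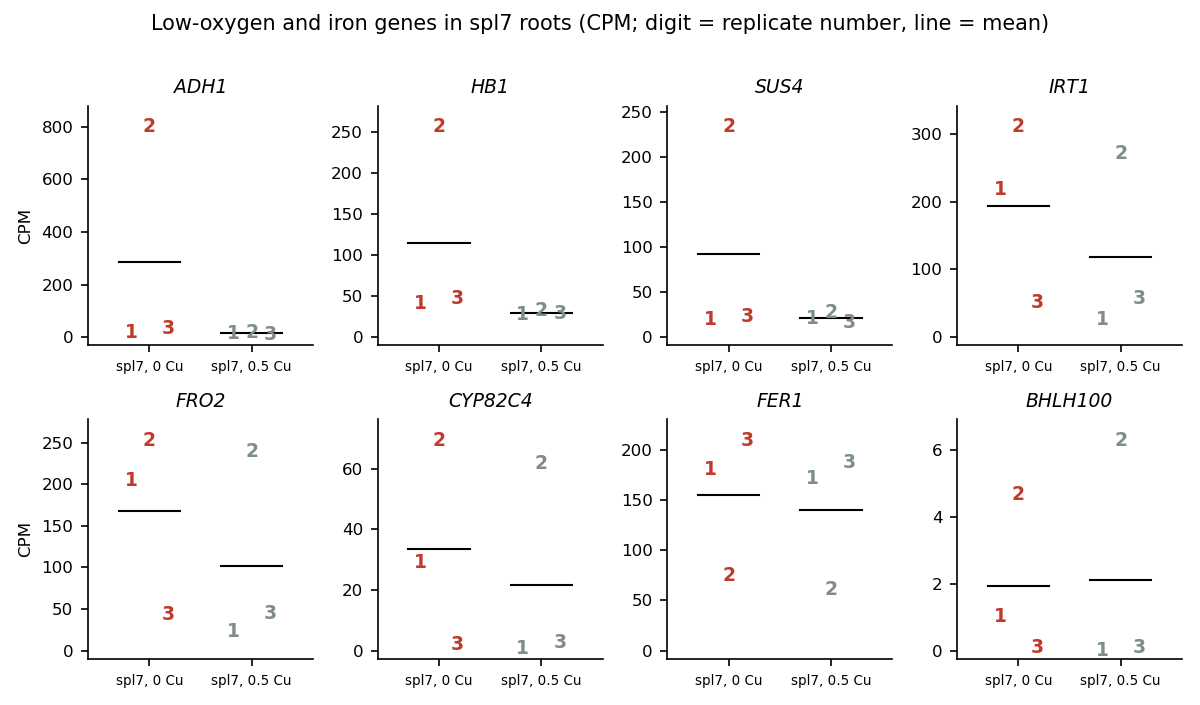
Levels in CPM (y axis, from 0, its own scale in each panel) of 3 low-oxygen genes, 4 iron deficiency genes and the ferritin gene FER1 in copper-free (left) and control (right) spl7 roots, each library drawn as its replicate number with a line at the mean. Copper-free replicate 2 alone is high for ADH1, HB1 and SUS4. Replicate 2 is the highest of both groups for IRT1, FRO2, CYP82C4 and BHLH100 and the lowest for FER1. Copper-free replicate 1 is also high for IRT1 and FRO2 and lies between the other copper-free libraries for CYP82C4.

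The other lists held no call in the main fit. Neither edgeR nor DESeq2's Wald test then called any of 16 clock genes or 11 endodermis barrier genes. The same held for 10 phosphate starvation genes, 8 sulfate assimilation genes and 7 heat shock genes. The medians of these lists lay between -0.10 and 0.33. At an unadjusted p of 0.05, 4 clock genes passed as higher and 2 as lower, and 1 sulfate gene and 1 heat shock gene passed as higher. With only the compared groups in the fit, edgeR called 1 clock gene higher and 1 lower. The copper-free libraries lay above all control libraries for 5 clock genes and below them for 4, beside 8.6% and 8.53% of all genes. COR27, a cold-regulated clock output, had 6.24, 6.24 and 6.25 CPM in copper-free roots, against 4.21, 4.75 and 4.15 CPM in control roots, groups that lay apart without passing (adjusted p = 0.274).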

How the data were processed

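The series holds 54 messenger RNA libraries of spl7 and Col-0 roots and rosettes, in 18 groups of 3. The authors deposited read counts per gene. Bowtie, HTSeq and the TAIR10 build are named in the submitters' processing notes, while versions and the strand setting are not given in the sources used here. Reads shared by near-identical copies, or by overlapping antisense genes, may therefore be assigned uncertainly.

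Counts of all 27 root libraries were fitted together in edgeR 4.0.16 (R 4.3.3; filterByExpr with a minimum count of 10 and a total of 15, TMM scaling factors of 0.969 to 1.03, residual degrees of freedom 18), with quasi-likelihood tests and Benjamini-Hochberg adjustment over 20462 genes; a gene was called at an adjusted p of 0.05. Rosettes were fitted likewise over 20015 genes. The script was tested on simulated data. Genes named were the called genes, the members of copper and iron lists, up to 4 members of each other list by unadjusted p, and up to 10 genes for the difference between genotypes. The comparison, the lists and the rule were chosen with earlier results of these data known. Families by annotation were set after the values were seen. Symbols and coordinates came from the RefSeq annotation of TAIR10.1, which matched 28932 identifiers. Alternatives were DESeq2 1.42.0 (size factors, Wald test), no filter, a replicate block, only the compared groups, and leaving out libraries. No pair of libraries within a group agreed within sampling noise. Replicate numbers were not treated as pairs, because they are not known to pair the samples. In copper-free against control spl7 roots the deviations of same-numbered libraries correlated by 0.120, 0.105 and 0.016. The best match was the same number for replicates 1 and 2. It was the same number for all 3 replicates of doubly deficient against iron-free spl7 roots, and for none in Col-0 roots. A replicate effect shared between groups was not tested.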

Additional observations from a re-analysis of the deposited data

Results flagged for a closer look

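Named genes whose change on copper removal differed between spl7 and Col-0 roots, by the test of that difference in edgeR, were looked at again. On the log2 scale, spl7 minus Col-0, the difference was 1.34 for AT1G78830, 1.73 for TCH3, 1.05 for NSP3 and 0.97 for CSD1. It was -1.36 for OFP1, -2.58 for AT4G28790, -1.25 for CCH, -2.07 for ZIP2 and -0.98 for AT3G42806.1, an identifier without annotation in the reference used. The adjusted p ran between 0.00231 for CCH and 0.0433 for ZIP2 and NSP3. NSP3, a nitrile specifier protein of glucosinolate breakdown, averaged 14.8 ± 1.09 CPM in copper-free spl7 roots and 10.7 ± 1.04 CPM in control spl7 roots, against 10.9 ± 0.75 CPM in copper-free Col-0 roots and 16.4 ± 1.77 CPM in control Col-0 roots (SD, n = 3 each). The genotypes had different copper supplies before treatment, which cannot be told apart from genotype here.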

How the results depend on the processing

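In spl7 roots the 43 calls were 43 with DESeq2 size factors or no filter (41 shared), 169 with DESeq2's Wald test, 62 with only the compared groups (22 shared), 355 when the iron-free spl7 group was reduced to replicates 1 and 2, and 0 to 57 when 1 compared library was left out. Leaving out copper-free replicate 1, 2 or 3 gave 30, 23 and 53 calls, control replicate 3 gave 57, and control replicates 1 and 2 gave 0 each. No called gene changed direction in any of these. The 15 calls in Col-0 roots were 190 with the Wald test (7 shared), 271 with the reduced group and 11 to 1518 on leaving out a library, 1518 being without copper-free replicate 1. The 9 differences between genotypes were 128, 173 and, with only the compared groups, 24, and 5 to 363 on leaving out a library. The 2844 calls of doubly deficient against iron-free spl7 roots became 0 with only the compared groups (2482 at an unadjusted p of 0.05) and 353 to 9088 on leaving out a library, 9088 being without iron-free replicate 3. The 225 calls of copper-free against control in spl7 rosettes were 491 with the Wald test, 0 with only the compared groups (1718 at an unadjusted p of 0.05) and 58 to 949 on leaving out a library. The cause was not tested. With the replicate number as a block, 45 genes were called in spl7 roots (40 shared) and 5 differed between genotypes; the numbers are not known to pair the samples. For copper genes with under 3 counts a library, a fall or a small change was not detectable at this depth.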
